A study of Arabidopsis thaliana with 12 samples.

Results

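The 45 genes described here are a set of Arabidopsis thaliana cell cycle and DNA replication genes, measured by sequencing the polyadenylated RNA of germinating seeds. They were taken from a written list of cyclins, cyclin-dependent kinases (CDKs), MCM and PCNA genes, replication licensing factors, E2F and RBR genes and a cytokinesis gene, each matched by its locus identifier. The whole series held 18542 genes, of which 17751 had counts in all 12 libraries and were tested, and 44 of the 45 were among them. CYCA2;1 (AT5G25380) was the exception, since neither ago4-2 NaCl library had a value for it in the deposited tables. By role the set held 11 G1 genes (D-type cyclins, E2FA, E2FB and RBR1), 15 replication genes, 15 mitotic and cytokinesis genes, and 4 regulators (CDKA;1, KRP2, SIM and WEE1). The genotypes were Col-0, the wild type, and 2 lines carrying mutations in AGO4, ago4-2 and ago4-3. Seeds germinated on MS 1X, called control, or on MS 1X containing NaCl (100 mM), under a day of 16 h of light and 8 h of dark (21 °C). AGO4 encodes an ARGONAUTE protein that binds small RNAs and directs DNA methylation. The labels state neither the age of the seeds at harvest nor the lesion of each ago4 line. Each of the 6 groups had 2 libraries, termed biological replicates in the design text. No label names separate sowings or plates, and the spread behind each p-value, which is that between these libraries, may be technical.

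A dry seed resumes the cell cycle during germination, mostly in the root tip. D-type cyclins bind CDKA;1 and phosphorylate the retinoblastoma protein RBR1, which releases E2F factors that switch on genes for DNA synthesis. Origins of replication are marked by the origin recognition complex, loaded with the MCM helicase by CDC6 and CDT1, and copied with the help of the sliding clamp PCNA and of nucleotides made by ribonucleotide reductase. A- and B-type cyclins with the plant-specific CDKB kinases then act around mitosis, and the syntaxin KNOLLE builds the cell plate at division. KRP and SIAMESE-type proteins inhibit CDKs, and WEE1 is a kinase of the replication checkpoint.

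The libraries held 18168653 to 47517007 counts, and the listed genes together 0.0979% to 0.159% of them. AGO4 read 35.4 to 49.1 CPM in the 8 Col-0 and ago4-2 libraries and 0.549 to 1.35 CPM in the 4 ago4-3 libraries, so the transcript checks the ago4-3 label and not that of ago4-2. CPM here scale each count to the library's total after TMM scaling, and CPM per kb divides them by the length of the annotated exons. The ago4-2 control libraries differed more from each other than those of any other group (chi-square per degree of freedom of 154, against 14.1 to 30.1), and the counts of calls under salt in ago4-2 are given with and without each. Summed root and shoot meristem markers, of which 5 of 7 had counts in all libraries and none was at 0, read 94.1 to 94.4 CPM in Col-0 control and 68.7 to 81.4 in Col-0 NaCl. The same sum read 90.8 to 92.6 and 74.8 to 90.7 CPM in ago4-2, and 96.4 to 99.8 and 77.4 to 85.4 CPM in ago4-3. Salt lowered 1 of the 5 in Col-0, 0 in ago4-2 and 1 in ago4-3, and raised 0 in each. Their median log2 changes were −0.244, −0.112 and −0.14. All 7 seed reserve genes had counts, and their sum went from 133 to 184 CPM in Col-0 control to 626 to 956 in NaCl. It stood at 1515 to 1646 and 9315 to 10470 CPM in ago4-2, and at 148 to 264 and 1557 to 1644 CPM in ago4-3. The 7 genes did not move alike: salt raised 3 and lowered 1 in Col-0, where the median log2 change was 0.559. In ago4-2 it raised 4 and lowered 1, and in ago4-3 it raised 4 and lowered 0. The 3 endosperm markers summed to 130 to 147 CPM in Col-0 control, 273 to 295 in ago4-2 control and 46.0 to 146 over the NaCl groups and ago4-3 control. Of these 3, salt raised 0 and lowered 1 in Col-0, and raised 1 and lowered 2 in each mutant. Light-harvesting genes (4 of 5) went from 47.9 to 49.6 CPM in Col-0 control to 199 to 214 in NaCl, and from 71.2 to 80.3 to 198 to 203 in ago4-3, and read 62.4 to 65.6 and 67.1 to 80.7 in ago4-2. Stomatal lineage genes (6 of 7), a source of dividing cells in leaves, summed to 57.1 to 60.5 CPM in ago4-2 control and 42.4 to 45.6 in ago4-2 NaCl, with 3 of the 6 lower under salt there, and to 41.2 to 41.5 and 43.4 to 52.0 in Col-0 and 39.5 to 43.1 and 42.2 to 45.4 in ago4-3. Of these 6, 3 were also called for the difference between the ago4-2 and Col-0 responses. In bulk RNA, fewer cells of a type and less RNA per cell cannot be told apart, and the part of these markers in the results below was not tested. Another annotated gene overlaps 18 of the 45 genes, MCM7, PCNA2, ORC1A, CDC6, TSO2, CYCD1;1, KNOLLE and both CDKB2 genes among them, and reads of the partners cannot be told apart without knowing whether the counting used strand.

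E2F factors are known to bind the words TTTCCCGC, TTTGGCGC, TTTCGCGC and TTTGCCGC, and MYB3R factors bind elements of G2 and M phase genes with the core AACGG. Both were searched on both strands in the 250 bases before each annotated start in the RefSeq annotation of TAIR10.1. An E2F word stood in 387 of 27443 protein-coding genes (1.41%) and in 6 of the 15 replication genes (MCM2, MCM3, MCM4, MCM5, MCM6 and ORC1A). It stood in 2 of 11 G1 genes (CYCD3;3 and RBR1) and in 0 of 15 mitotic genes. The short core AACGG stood in 5645 genes (20.6%), in 9 of 15 mitotic genes and in 2 of 15 replication genes. The windows below are the 120 bases before the start of 5 replication genes with an E2F word and of 3 mitotic genes with the core. They were picked by response: the MCM genes printed fell under salt, and the 3 mitotic genes rose in at least 1 genotype. ORC1A is shown because it holds the word and was called in no comparison. Of the 11 listed genes lower under salt in all 3 genotypes, 6 hold an E2F word, and MCM7, PCNA1, PCNA2, CDT1A and TSO2 hold none in the 250 bases searched. A word crossing the annotated start was not searched, and the CDT1A window ends with part of such a word. Among 24 other replication genes, from the wider list described below, 6 hold an E2F word (25%). Of the 23 of these tested, 0 were lower in all 3 genotypes. The core also stands in CYCA1;1, CYCB1;1, CYCB2;1 and CYCB2;2, which were called in no comparison. Capitals mark an E2F word, on either strand, in the first 5 and the core AACGG, or CCGTT where it lies on the other strand, in the last 3. The windows are chr1:16970094-16970213 on the plus strand (MCM2), chr2:7130730-7130849 minus (MCM4), chr2:3527501-3527620 minus (MCM5), chr5:18010668-18010787 minus (MCM6), chr4:8422053-8422172 plus (ORC1A), chr5:1861704-1861823 minus (CYCB1;2), chr1:7137829-7137948 minus (CYCB2;3) and chr1:2711001-2711120 minus (KNOLLE).
MCM2: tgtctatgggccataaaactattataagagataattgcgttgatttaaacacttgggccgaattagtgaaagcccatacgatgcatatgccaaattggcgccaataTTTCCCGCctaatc
MCM4: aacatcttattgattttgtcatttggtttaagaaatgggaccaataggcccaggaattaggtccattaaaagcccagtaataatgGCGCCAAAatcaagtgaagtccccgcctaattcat
MCM5: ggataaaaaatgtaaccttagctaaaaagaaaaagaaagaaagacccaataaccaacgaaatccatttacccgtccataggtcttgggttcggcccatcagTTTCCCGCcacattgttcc
MCM6: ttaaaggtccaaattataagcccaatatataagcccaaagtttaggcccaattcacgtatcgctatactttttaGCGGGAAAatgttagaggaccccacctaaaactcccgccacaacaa
ORC1A: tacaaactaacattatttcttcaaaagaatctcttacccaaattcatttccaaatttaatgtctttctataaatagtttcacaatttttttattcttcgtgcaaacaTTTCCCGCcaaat
CYCB1;2: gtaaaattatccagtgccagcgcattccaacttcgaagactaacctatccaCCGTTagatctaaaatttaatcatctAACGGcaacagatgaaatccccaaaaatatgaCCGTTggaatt
CYCB2;3: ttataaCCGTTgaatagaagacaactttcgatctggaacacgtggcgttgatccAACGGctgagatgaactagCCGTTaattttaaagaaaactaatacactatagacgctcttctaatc
KNOLLE: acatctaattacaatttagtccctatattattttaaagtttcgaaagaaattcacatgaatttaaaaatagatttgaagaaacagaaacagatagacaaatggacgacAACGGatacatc
The word begins 13 bases before the annotated start in ORC1A, 14 in MCM2, 19 in MCM5, 35 in MCM4 and 46 in MCM6, and in MCM3, outside the window printed, 170. A match is a description of letters, not of binding.

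Of the 15 listed replication genes, 10 were lower on NaCl in all 3 genotypes. Among 23 other replication genes, from the wider list described below, 0 were lower in all 3. The listed genes were chosen with earlier results of these data known. The helicase genes MCM2 to MCM7, the clamp genes PCNA1 and PCNA2, the licensing factor CDT1A and the ribonucleotide reductase gene TSO2 fell in Col-0, in ago4-2 and in ago4-3, and 0 of 15 replication genes rose in any genotype. Salt lowered 10 of the 15 in Col-0, 12 in ago4-2 and 13 in ago4-3, with median log2 changes of −0.44, −0.44 and −0.61 against 0.01, −0.02 and −0.01 over all 17751 genes. Leaving out control replicate 1, control replicate 2 and NaCl replicate 2 of Col-0 gave 6, 4 and 5 in Col-0. In ago4-2 the count was 11 and 8 without control replicate 1 and 2, and 7 without NaCl replicate 2, and in ago4-3 it was 8 without NaCl replicate 1. Over all genes tested, 7.42% were lower in Col-0, 17.8% in ago4-2 and 10.4% in ago4-3 at an adjusted p under 0.05 in edgeR's quasi-likelihood test. Of the 44 listed genes tested, 11 fell in every genotype (the 10 named above and CYCD3;3), where 848 of all genes (4.78%) did. The 3 salt comparisons share no library with each other.

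**Figure D1:**
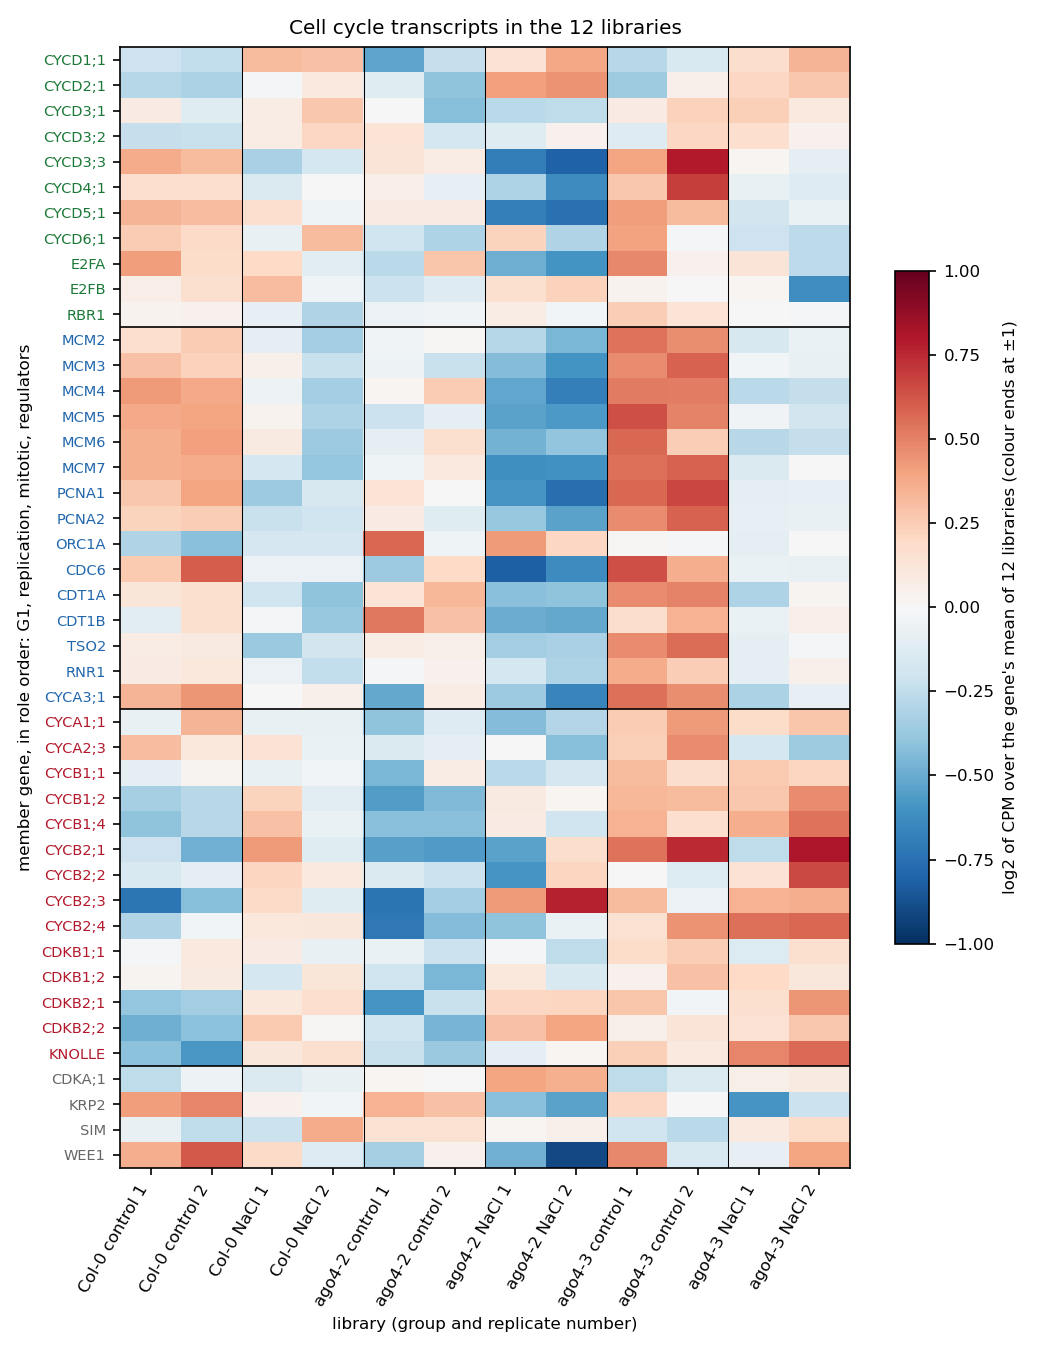
Levels of the 44 tested genes (rows, ordered by role) in the 12 libraries (columns), as log2 of CPM relative to each gene's mean over the libraries, with red for higher and blue for lower. In the replication block, the median over genes is 0.26 in both Col-0 control libraries and −0.06 and −0.24 in Col-0 NaCl, and the mitotic block runs from −0.25 and −0.18 to 0.13 and −0.05.

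MCM7 (AT4G02060), a subunit of the helicase, gave 64.0 and 64.4 CPM in the Col-0 control libraries and 44.2 and 38.2 in NaCl. The ago4-2 libraries read 48.6 and 53.3 CPM in control and 32.6 and 32.7 in NaCl, and those of ago4-3 73.3 and 75.2 in control and 45.1 and 50.2 in NaCl. Every NaCl library lay below both control libraries of its genotype. The log2 fold change was −0.64 ± 0.10 (SE) in each genotype, which is 0.642, 0.641 and 0.642 of the control level (adjusted p = 0.000391, 0.000203 and 0.000293). PCNA1 (AT1G07370), a sliding clamp that holds the DNA polymerase on its template, read 73.3 and 79.95 CPM in Col-0 control and 47.2 and 54.4 in NaCl. It read 67.0 and 60.6 against 40.3 and 36.0 CPM in ago4-2, and 90.5 and 96.8 against 57.1 and 57.5 in ago4-3. Its fall was −0.59 ± 0.10 in Col-0, −0.74 ± 0.10 in ago4-2 and −0.71 ± 0.10 in ago4-3 (adjusted p = 0.000862, 7.14e-05 and 0.000157), again with no overlap between control and NaCl. MCM4 (AT2G16440) fell by 0.59, 0.75 and 0.77 on the log2 scale (adjusted p = 0.00243, 0.00023 and 0.000246), from 50.0 and 48.4 to 36.0 and 29.5 CPM in Col-0, 37.9 and 44.6 to 26.1 and 23.2 in ago4-2, and 53.6 and 53.3 to 30.9 and 31.6 in ago4-3. The NaCl libraries were the lower ones in each genotype. The second clamp gene PCNA2 (AT2G29570) fell by 0.45, 0.44 and 0.61 (adjusted p = 0.00416, 0.00261 and 0.00033), from 70.9 and 72.05 to 52.0 and 53.0 CPM in Col-0, 64.3 and 55.8 to 46.6 and 41.8 in ago4-2, and 84.2 and 91.3 to 57.5 and 57.7 in ago4-3. These 4 genes were called in all 3 genotypes in each of the 12 fits that left out 1 library, termed reduced fits below.

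The other MCM genes moved by similar sizes with calls that hung more on single libraries. MCM2 read 53.1 and 56.4 CPM in Col-0 control and 44.2 and 37.2 in NaCl, and MCM5 read 50.7 and 51.3 and then 39.8 and 31.4. In ago4-2, MCM5 read 33.5 and 36.6 in control and 26.8 and 26.2 CPM in NaCl, and in ago4-3 60.8 and 55.0 and then 37.9 and 34.2, so that the ago4-3 NaCl libraries overlapped the ago4-2 control libraries. MCM6, the least abundant of the helicase genes per kb of exon (8.27 CPM per kb in Col-0 control, against 15.9 to 24.2 for the others), went from 23.7 and 24.6 to 19.7 and 14.4 CPM. Across genotypes the fall was 0.43, 0.36 and 0.62 for MCM2, 0.52, 0.41 and 0.69 for MCM5, and 0.50, 0.47 and 0.68 for MCM6, each called in every genotype. The Col-0 calls of MCM2 and MCM5 ended without control replicate 2 or NaCl replicate 2 of Col-0 (highest adjusted p = 0.102 and 0.0688), and that of MCM6 in 5 reduced fits (0.278). In ago4-2 the calls of all 3 ended without control replicate 2 or NaCl replicate 2, and those of MCM5 and MCM6 also without NaCl replicate 1 (highest adjusted p = 0.161, 0.101 and 0.206). In ago4-3, MCM6 alone lost its call, without control replicate 1 or NaCl replicate 1 (0.0791). MCM3 went from 49.5 and 47.3 to 41.7 and 34.5 CPM in Col-0, a fall of 0.35 ± 0.11 (adjusted p = 0.0421) that was lost in 8 of the 12 reduced fits (highest adjusted p = 0.278). In ago4-2 it fell by 0.37 (adjusted p = 0.02), lost without control replicate 1 or NaCl replicate 2 (0.17), and in ago4-3 its fall of 0.59 (adjusted p = 0.00162) was called in all 12.

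**Figure D2:**
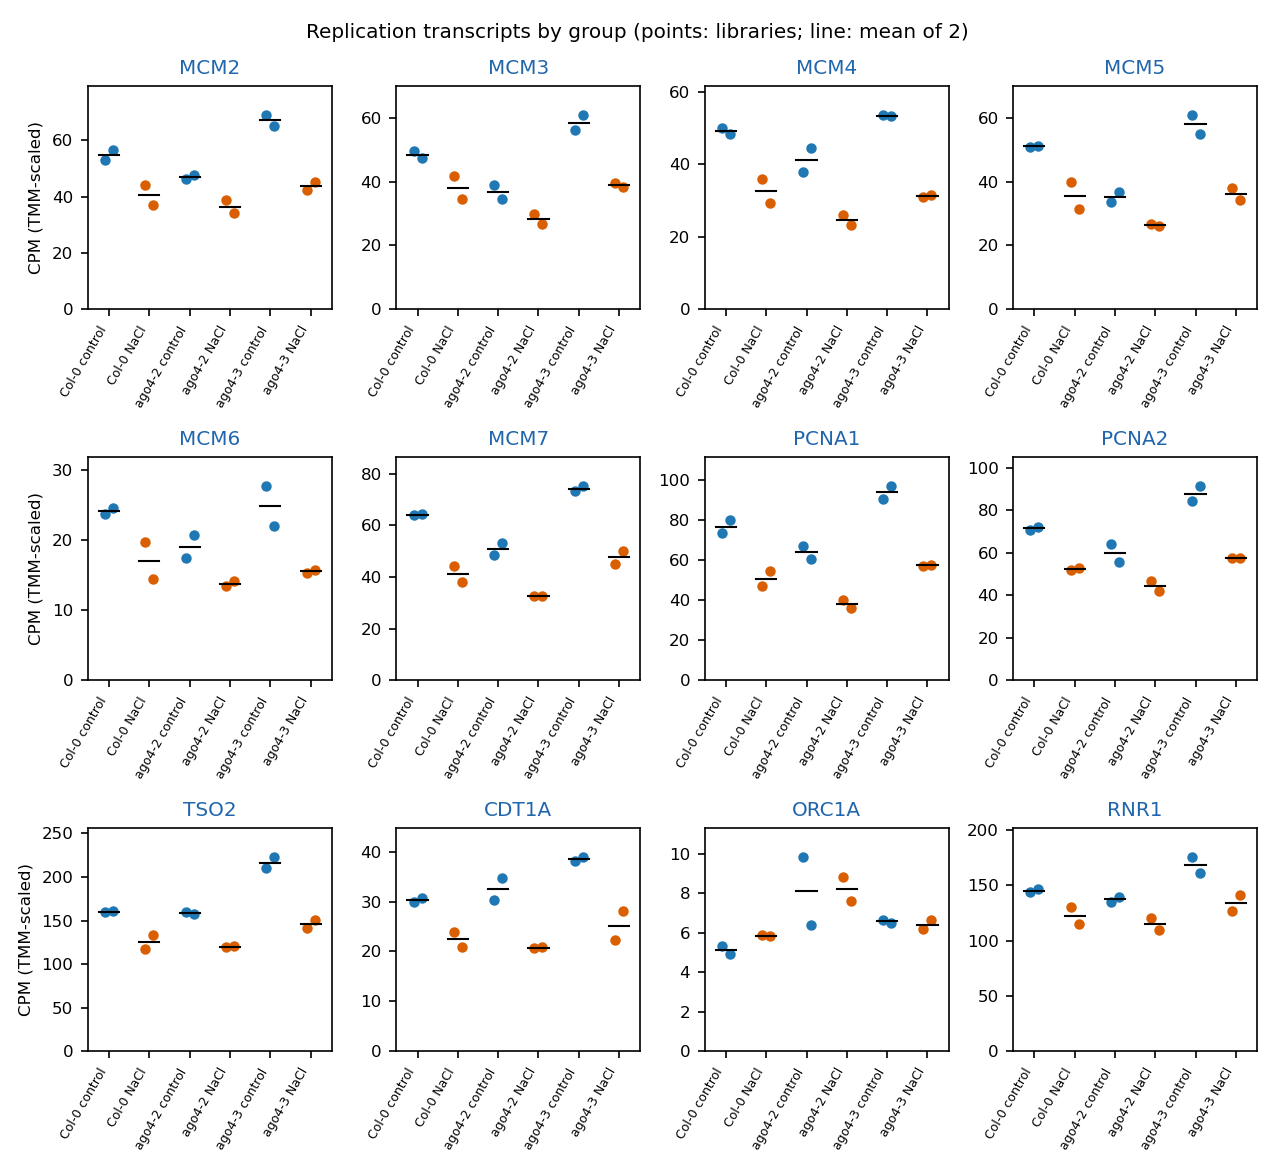
Level of 12 replication genes (CPM, linear axis from 0) in each library, with control in blue, NaCl in orange and a line at the mean of the 2 libraries. MCM, PCNA, TSO2 and CDT1A points lie lower on NaCl than in control within each genotype, with ago4-3 control highest (PCNA1 at 90.5 and 96.8 CPM), whereas ORC1A shows no such step.

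Of the nucleotide supply genes, TSO2 was lower in every genotype and RNR1 in ago4-3. TSO2 (AT3G27060), a small subunit of ribonucleotide reductase and the most abundant of the 45 per kb (94.8 CPM per kb in Col-0 control), read 159.5 and 161 CPM in Col-0 control and 117 and 134 in NaCl. In ago4-2 it read 159.9 and 158 CPM in control and 119 and 121 in NaCl, and in ago4-3 210.4 and 223 and then 142 and 151. Its fall was 0.35, 0.40 and 0.57 in Col-0, ago4-2 and ago4-3 (adjusted p = 0.0138, 0.0034 and 0.000419). The Col-0 call ended without either Col-0 control library or without NaCl replicate 1 (highest adjusted p = 0.0986). The large subunit gene RNR1 was called in ago4-3 alone (−0.33 ± 0.10, adjusted p = 0.0244, and 0.198 at most without control replicate 1 or NaCl replicate 1 of ago4-3), with −0.25 in Col-0 (adjusted p = 0.0971) and −0.26 in ago4-2 (adjusted p = 0.0561). The difference between genotypes was not called for RNR1 (adjusted p = 0.984 for ago4-2 and 0.999 for ago4-3 against Col-0).

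Licensing genes split. CDT1A (AT2G31270) read 30.0 and 30.7 CPM in Col-0 control and 24.0 and 20.9 in NaCl, and fell by 0.44, 0.65 and 0.61 in the 3 genotypes (adjusted p = 0.0249, 0.00124 and 0.00294). The Col-0 call ended without either control library or NaCl replicate 2 (highest adjusted p = 0.165), and the ago4-3 call at 0.0504 without ago4-3 NaCl replicate 1. Its paralog CDT1B (AT3G54710) read 13.9 and 11.8 CPM in ago4-2 control and 6.84 and 6.77 in ago4-2 NaCl, a fall of 0.91 ± 0.17 (adjusted p = 0.00076). Its change was −0.21 in Col-0 and −0.26 in ago4-3 (adjusted p = 0.421 and 0.286), and the difference of −0.70 ± 0.23 between the ago4-2 and Col-0 responses was not called (adjusted p = 0.108). CDC6 (AT2G29680), which helps CDT1 load the helicase, fell in ago4-2 from 5.68 and 8.42 to 4.16 and 4.74 CPM (−0.68 ± 0.21, adjusted p = 0.0189), lost without control replicate 2 or either NaCl library of ago4-2 (0.305 at most). It fell by 0.58 in ago4-3 (adjusted p = 0.0451), a call lost in 10 of the 12 reduced fits, and gave −0.49 in Col-0 (adjusted p = 0.0916). ORC1A (AT4G14700), the large subunit of the origin recognition complex, was the 1 replication gene called in none of the 9 comparisons. It read 5.34 and 4.93 CPM in Col-0 control, 5.86 and 5.85 in Col-0 NaCl, 9.82 and 6.38 in ago4-2 control and 8.83 and 7.61 in ago4-2 NaCl. In ago4-3 it read 6.63 and 6.51 CPM in control and 6.17 and 6.62 in NaCl. Control and NaCl overlapped in both mutants, and in Col-0 they were apart with a change of 0.19 ± 0.20 (adjusted p = 0.575). The A-type cyclin CYCA3;1 (AT5G43080), listed with the replication genes, was called in ago4-3 alone (−0.70 ± 0.23, adjusted p = 0.0388, lost in 7 of the 12 reduced fits), from 5.95 and 5.61 to 3.26 and 3.84 CPM.

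Mitotic transcripts were higher or not called in Col-0 and ago4-2. Of 14 tested, salt raised 4 in Col-0 and 4 in ago4-2 and lowered none in either, and in ago4-3 it raised none and lowered 1. Over all genes tested, 10.7% were higher in Col-0, 17.4% in ago4-2 and 12.6% in ago4-3. The Col-0 count was 1 without Col-0 control replicate 1, 0 without control replicate 2 and 1 without NaCl replicate 1, and the ago4-2 count was 2 without ago4-2 control replicate 1 and 3 without its replicate 2. The median log2 changes were 0.33, 0.32 and 0.08. In Col-0 the 4 were the B-type cyclin CYCB2;3, both CDKB2 kinases and the syntaxin KNOLLE, and in ago4-2 they were CYCB2;3, both CDKB2 kinases and CYCB1;2. Together these are 5 genes, of which 4 hold the core AACGG in the 250 bases before the start (CDKB2;1 does not). Expression levels were low, with group means of 1.19 to 13.0 CPM in Col-0 control over the 14 genes.

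CYCB2;3 (AT1G20610) read 5.07 and 6.21 CPM in Col-0 control and 9.56 and 7.67 in NaCl. It read 5.04 and 6.55 against 11.2 and 14.2 CPM in ago4-2, and 10.4 and 8.03 against 10.6 and 10.7 in ago4-3. Groups were apart in each genotype, though in ago4-3 by a narrow gap. The rise was 1.12 ± 0.20 in ago4-2 (adjusted p = 0.000589, called in all 12 reduced fits) and 0.62 ± 0.19 in Col-0 (adjusted p = 0.0375), where 4 of them lost it. The ago4-3 change was 0.21 ± 0.19 (adjusted p = 0.487). CDKB2;2 (AT1G20930), a kinase that accumulates around mitosis, read 5.82 and 6.13 CPM in Col-0 control and 9.76 and 8.24 in NaCl. In ago4-2 it read 7.11 and 5.91 CPM in control and 10.0 and 10.7 in NaCl, and in ago4-3 8.51 and 8.92 and then 9.04 and 9.81. It rose by 0.59 ± 0.16 in Col-0 (adjusted p = 0.0154) and 0.68 ± 0.16 in ago4-2 (adjusted p = 0.00425), with 0.12 in ago4-3 (adjusted p = 0.641). The Col-0 call ended without either control library or NaCl replicate 1 (highest adjusted p = 0.127), and the ago4-2 call at 0.0581 without ago4-2 control replicate 2. Its paralog CDKB2;1 (AT1G76540) went from 8.56 and 8.78 to 12.04 and 12.6 CPM in Col-0 and from 7.43 and 9.57 to 12.9 and 13.0 in ago4-2, and read 13.5 and 10.96 and then 12.5 and 15.2 in ago4-3, where the groups overlapped. Those rises were 0.51 and 0.59 (adjusted p = 0.0345 and 0.0103). The first was lost in 6 of the 12 reduced fits, and the second without control replicate 1 or NaCl replicate 2 of ago4-2 (0.0773 at most).

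KNOLLE (AT1G08560), the syntaxin of the cell plate, read 11.1 and 9.86 CPM in Col-0 control and 15.9 and 16.5 in NaCl, a rise of 0.62 ± 0.13 (adjusted p = 0.00315). It ended at an adjusted p of 0.0535 without Col-0 control replicate 2. In ago4-2 the libraries read 12.6 and 11.4 and then 13.8 and 14.9 CPM (0.27, adjusted p = 0.127), and in ago4-3 17.4 and 15.7 and then 20.6 and 21.8 (0.36, adjusted p = 0.0539). CYCB1;2 (AT5G06150) rose in ago4-2 from 6.98 and 7.57 to 10.9 and 10.4 CPM (0.54 ± 0.15, adjusted p = 0.0121, and 0.0698 at most without control replicate 1 or NaCl replicate 1 of ago4-2), with 0.38 in Col-0 (adjusted p = 0.0877), where it read 8.14 and 8.45 in control and 11.96 and 9.54 in NaCl. In ago4-3 it already stood at 12.9 and 12.8 CPM in control and gave 12.3 and 14.2 in NaCl. CYCB1;4 (AT2G26760) read 4.18 and 4.56 CPM in Col-0 control, 6.76 and 5.27 in Col-0 NaCl, 7.02 and 6.19 in ago4-3 control and 4.13 and 4.14 in ago4-2 control, and none of these differences was called. The better known CYCB1;1 (AT4G37490), which also responds to DNA damage, stayed between 5.62 and 9.57 CPM in all 12 libraries, with log2 changes of −0.02, −0.07 and −0.01. CDKB1;1 (AT3G54180), the most abundant mitotic gene per kb (9.40 CPM per kb in Col-0 control), read 12.5 and 13.5 CPM in Col-0 control and 13.3 and 11.9 in NaCl, with overlapping groups. Over all 12 libraries it stayed between 10.5 and 14.9 CPM. Of the A-type cyclins, CYCA2;3 (AT1G15570) was lower on salt in ago4-3, from 12.5 and 14.6 to 9.33 and 8.23 CPM (−0.63 ± 0.17, adjusted p = 0.0143), against −0.17 in Col-0 (adjusted p = 0.512). Without replicate 2 of ago4-3 control or of ago4-3 NaCl that call ended (0.107 at most). CYCA2;1, left out of the fit, read 1.17 and 1.45 CPM in Col-0 control, 1.21 and 0.922 in Col-0 NaCl, 0.581 and 0.645 in ago4-2 control, 1.17 and 0.735 in ago4-3 control and 0.583 and 1.13 in ago4-3 NaCl. Scaling by library size alone, with no correction for composition, left 1 of the 5 listed genes higher in Col-0 and 3 of 7 in ago4-2, beside 8 and 18 lower.

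**Figure D3:**
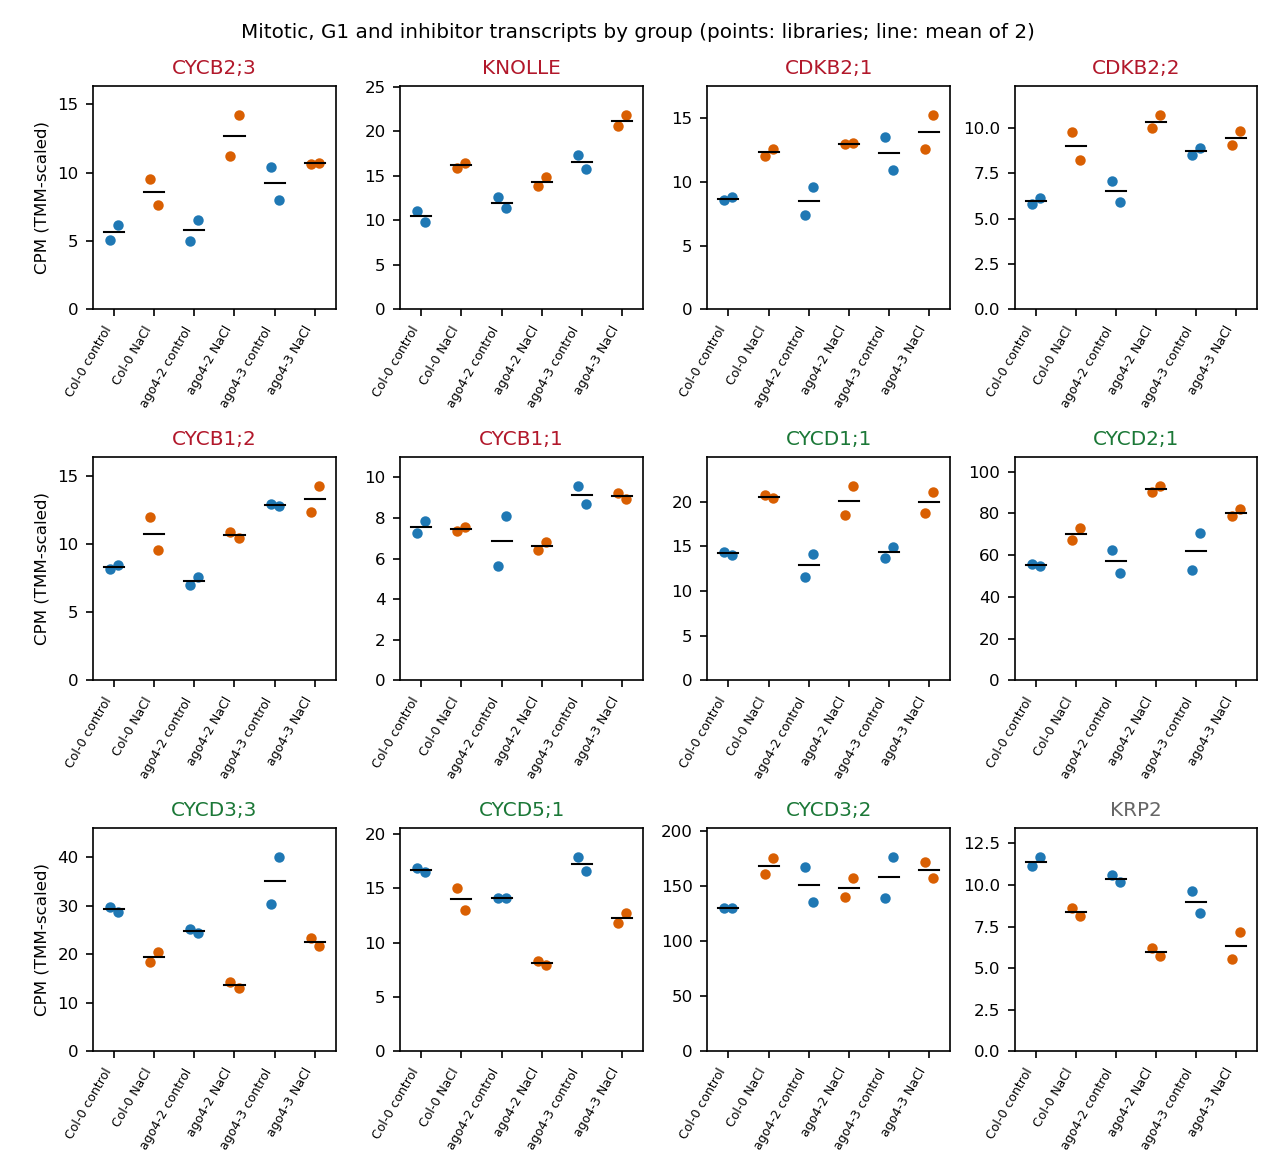
Level of 12 mitotic, G1 and inhibitor genes (CPM, linear axis from 0) in each library, with control in blue, NaCl in orange and a line at the mean of the 2 libraries. CYCB2;3 reaches 11.2 and 14.2 CPM in ago4-2 NaCl, and KNOLLE steps up from 11.1 and 9.86 to 15.9 and 16.5 CPM in Col-0, while CYCD3;3 and KRP2 step down.

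Relative to their own means over the 12 libraries, replication genes stood above mitotic genes in every control library and below them in every NaCl library. The median of the replication genes, each relative to its mean over the 12 libraries on the log2 scale, exceeded that of the mitotic genes by 0.27 to 0.51 in the 6 control libraries. In the 6 NaCl libraries the same difference ran from −0.51 to −0.19. The Col-0 control libraries gave 0.51 and 0.44, and the Col-0 NaCl libraries −0.19 and −0.20. Differences in ago4-2 were 0.40 and 0.42 in control and −0.43 and −0.51 in NaCl, and in ago4-3 they were 0.27 and 0.28 and then −0.28 and −0.48. These medians describe the listed genes only and carry no test. Because each gene is set against its mean over both media, their signs restate the salt changes above.

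**Figure D4:**
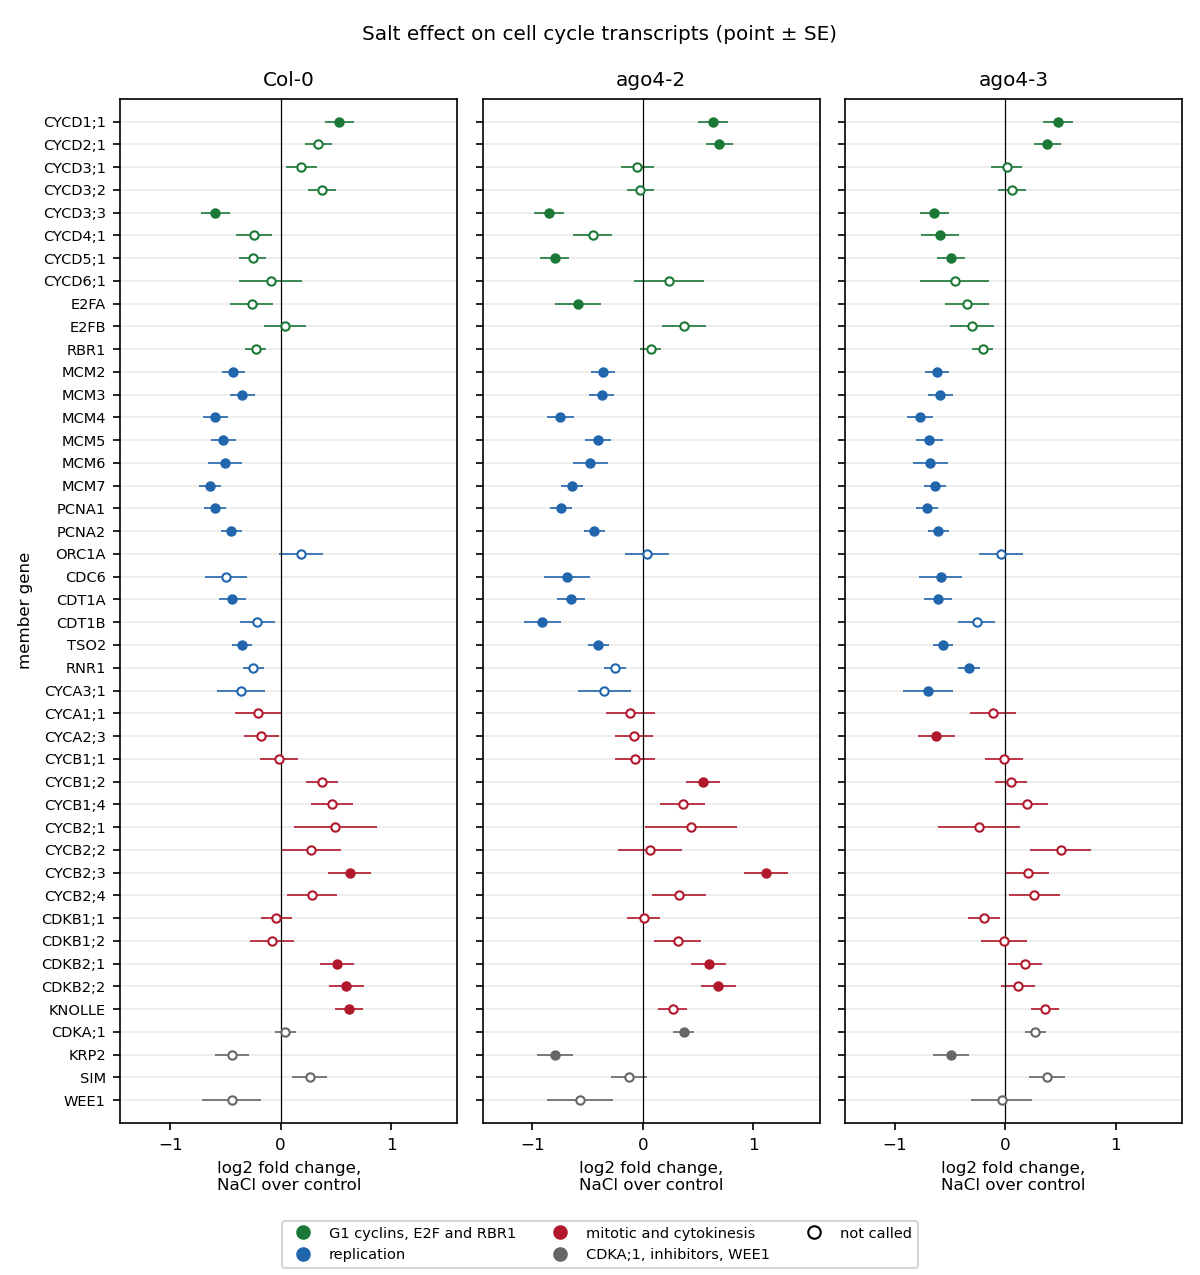
Log2 fold change of NaCl over control for the 44 tested genes in each genotype, as points with bars of 1 SE, filled where the adjusted p was under 0.05. Replication genes (blue) lie left of 0 except ORC1A in Col-0 and ago4-2, 4 mitotic genes (red) are filled to the right in Col-0 and in ago4-2, and G1 genes (green) lie on both sides.

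G1 genes went both ways. Of 11, salt raised 1 and lowered 1 in Col-0, and raised 2 and lowered 3 in each mutant, with medians of −0.09, −0.02 and −0.30. The shares higher were 9.09%, 18.2% and 18.2% in Col-0, ago4-2 and ago4-3, against 10.7%, 17.4% and 12.6% of all genes. The shares lower were 9.09%, 27.3% and 27.3%, against 7.42%, 17.8% and 10.4% of all genes. The ago4-2 median came to 0.14 without ago4-2 control replicate 1 and −0.17 without replicate 2. Among the D-type cyclins, which link growth signals to division, CYCD1;1 rose and CYCD3;3 fell in every genotype. CYCD1;1 (AT1G70210) read 14.4 and 14.0 CPM in Col-0 control and 20.7 and 20.4 in NaCl. It read 11.6 and 14.2 against 18.4 and 21.7 CPM in ago4-2, and 13.7 and 15.0 against 18.8 and 21.1 in ago4-3. No control library reached a NaCl library, and the rises were 0.53, 0.63 and 0.48 (adjusted p = 0.0121, 0.00249 and 0.0203). The Col-0 call ended without either control library or NaCl replicate 1 (highest adjusted p = 0.0969), and the ago4-3 call without control replicate 1 or NaCl replicate 2 (0.124). CYCD1;1 was the only listed gene higher in all 3 genotypes, as were 1114 of all genes (6.28%). CYCD3;3 (AT3G50070) read 29.8 and 28.7 CPM in Col-0 control and 18.4 and 20.4 in NaCl, 25.1 and 24.3 against 14.2 and 13.1 in ago4-2, and 30.3 and 40.0 against 23.3 and 21.7 in ago4-3. Its falls were 0.59, 0.85 and 0.64 (adjusted p = 0.00572, 0.000266 and 0.00303). In Col-0 that call ended at 0.0565 without Col-0 control replicate 1, and in ago4-3 at 0.0525 without ago4-3 control replicate 2.

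The related CYCD3;1 and CYCD3;2 were not called under salt. CYCD3;2, the most abundant G1 gene (77.5 CPM per kb in Col-0 control), read 130 and 131 CPM in Col-0 control and 161 and 176 in NaCl (0.37 ± 0.12, adjusted p = 0.0513). CYCD2;1 (AT2G22490) rose in ago4-2 from 62.5 and 51.5 to 90.4 and 93.0 CPM (0.69 ± 0.12, adjusted p = 0.000596). Its rise of 0.38 in ago4-3 (adjusted p = 0.0362) was lost in 7 of the 12 reduced fits, and in Col-0 it gave 0.34 (adjusted p = 0.0663). CYCD5;1 (AT4G37630) went from 14.1 and 14.2 to 8.31 and 7.94 CPM in ago4-2 (−0.80 ± 0.13, adjusted p = 0.000325) and from 17.9 and 16.6 to 11.8 and 12.8 in ago4-3 (−0.49, adjusted p = 0.0125, and 0.0914 at most without control replicate 1 or NaCl replicate 1 of ago4-3). In Col-0 the same gene read 16.9 and 16.5 and then 15.0 and 13.0 CPM (−0.25, adjusted p = 0.183). CYCD4;1 (AT5G65420) fell in ago4-3 from 10.4 and 13.8 to 8.12 and 7.82 CPM (−0.59 ± 0.17, adjusted p = 0.0214), a call lost without control replicate 2 or either NaCl library of ago4-3 (0.206 at most). E2FA (AT2G36010), an activating E2F factor, fell in ago4-2 from 9.88 and 14.4 to 8.48 and 7.87 CPM (−0.59 ± 0.21, adjusted p = 0.0394), a call lost in 4 of the 12 reduced fits. CYCD2;1 read 56.0 and 54.6 CPM in Col-0 control and 67.2 and 72.9 in NaCl, and in ago4-3 53.1 and 70.5 and then 78.5 and 82.1, without overlap in either. RBR1, which restrains E2F, stayed between 48.8 and 71.3 CPM in all 12 libraries and was called nowhere.

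Of the regulators, the CDK inhibitor KRP2 (AT3G50630) was lower on salt. It read 11.2 and 11.7 CPM in Col-0 control and 8.61 and 8.16 in NaCl, 10.6 and 10.2 against 6.23 and 5.74 in ago4-2, and 9.64 and 8.29 against 5.54 and 7.17 in ago4-3. Control and NaCl libraries were apart in each genotype, with changes of −0.44 (adjusted p = 0.0598), −0.80 (adjusted p = 0.00167) and −0.49 (adjusted p = 0.0418). DESeq2 did not call the last, nor did 8 of the 12 reduced fits. CDKA;1 (AT3G48750), the kinase that D-type cyclins bind, rose in ago4-2 from 49.1 and 48.2 to 63.6 and 62.1 CPM (0.37 ± 0.10, adjusted p = 0.00759, and 0.0505 without ago4-2 NaCl replicate 1). It gave 0.04 in Col-0 and 0.27 in ago4-3 (adjusted p = 0.815 and 0.0529). The inhibitor SIM (AT5G04470) read 15.6 and 13.8 CPM in Col-0 control and 14.2 and 21.3 in NaCl, 18.3 and 18.4 against 16.7 and 17.1 in ago4-2, and 14.3 and 13.6 against 17.6 and 18.7 in ago4-3. Neither SIM nor WEE1, at 1.87 to 5.34 CPM, was called in any comparison.

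Of the 44 genes, 15 were called in none of the 9 comparisons. They were CDKB1;1, CDKB1;2, CYCA1;1, CYCB1;1, CYCB1;4, CYCB2;1, CYCB2;2, CYCB2;4, CYCD3;2, CYCD6;1, E2FB, ORC1A, RBR1, SIM and WEE1. The other 29 gave 78 calls between them. The shares of all genes called in none or in any of the comparisons were not counted, so no background stands beside these counts. Of all genes tested, 7.42% were lower on salt in Col-0, 17.8% in ago4-2 and 10.4% in ago4-3. The shares higher were 10.7%, 17.4% and 12.6%. Salt lowered 11 of the 44 in Col-0, and that count was 6, 5 and 6 on leaving out control replicate 1, control replicate 2 and NaCl replicate 2 of Col-0. The 5 higher in Col-0 came to 1, 0 and 2 without control replicate 1, control replicate 2 and NaCl replicate 1. In ago4-2, 16 were lower and 7 higher, and the lower count was 10 without ago4-2 NaCl replicate 2. Leaving out the ago4-2 control libraries, which differed most from each other, gave 15 lower and 5 higher without replicate 1 and 11 lower and 6 higher without replicate 2. The replication median in ago4-2 was then −0.59 and −0.41, and the mitotic median 0.35 and 0.30. In ago4-3, 18 were lower and 2 higher, and the lower count was 10 without ago4-3 NaCl replicate 1. The count of 11 lower in every genotype ranged from 5 to 11 over the 12 reduced fits, with 5 when Col-0 control replicate 2 was left out. Leaving out replicate 2 of ago4-2 control gave 8, and leaving out its replicate 1 gave 11, of which 10 were the same genes. Of 15 replication genes, 14 had a negative log2 change in all 3 genotypes in the full fit, and 13 or 14 did in each of the 12 reduced fits (13 without ago4-2 control replicate 2).

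Between genotypes, 2 replication genes were lower in ago4-2 than in Col-0 in control medium and 6 in NaCl. In control, MCM5 read 33.5 and 36.6 CPM in ago4-2 against 50.7 and 51.3 in Col-0 (−0.54 ± 0.12, adjusted p = 0.0104), and MCM3 read 38.8 and 34.5 against 49.5 and 47.3 (−0.40 ± 0.11, adjusted p = 0.0394). These were the only 2 of 44 lower, with 0 higher at the adjusted threshold, where 3.22% of all genes were lower and 5.22% higher (8.44% in either direction). DESeq2 gave 3 calls. An unadjusted edgeR p under 0.05 was found for 12 of the 44, and for 4130 of all 17751 genes. Both calls ended when either Col-0 control library or replicate 1 of ago4-2 control was left out (highest adjusted p = 0.0822 for MCM5 and 0.227 for MCM3), and that of MCM3 in 5 further reduced fits. The ago4-2 NaCl libraries are shared by the comparison with Col-0 below and the salt comparison in ago4-2.

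On NaCl, 11 of 44 were lower and 3 higher in ago4-2 than in Col-0, against 14.4% and 14.9% of all genes (29.3% in either direction). The lower genes were MCM3, MCM4, MCM5, MCM7, PCNA1, CDC6, the D-type cyclins CYCD3;1, CYCD3;3 and CYCD5;1, E2FA and KRP2. CYCD5;1 showed the smallest adjusted p, at 8.31 and 7.94 CPM in ago4-2 against 15.0 and 13.0 in Col-0 (−0.79 ± 0.13, adjusted p = 0.000436), and, with CDKA;1, was called in all 12 reduced fits. PCNA1 read 40.3 and 36.0 against 47.2 and 54.4 CPM (−0.41 ± 0.10, adjusted p = 0.00739), and CDC6 4.16 and 4.74 against 7.02 and 7.003 (−0.65 ± 0.20, adjusted p = 0.0255). The 3 higher genes were CDKA;1 (0.48 ± 0.09, adjusted p = 0.00156), at 63.6 and 62.1 against 43.8 and 46.0 CPM, CYCD2;1 (0.39, adjusted p = 0.0266) and CYCB2;3 (0.56, adjusted p = 0.0361). The count of 11 lower was 4 without Col-0 NaCl replicate 1, 7 without Col-0 NaCl replicate 2, 5 without ago4-2 NaCl replicate 1 and 1 without ago4-2 NaCl replicate 2, and scaling by library size alone gave 21 lower and 0 higher. The 3 higher came to 1 without ago4-2 NaCl replicate 2. CYCD3;1 (AT4G34160) read 18.3 and 18.5 against 23.1 and 26.6 CPM (−0.44 ± 0.14, adjusted p = 0.0338). The ago4-2 NaCl libraries also held the highest seed reserve sums of the series, given above, whose part in these differences was not tested.

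**Figure D5:**
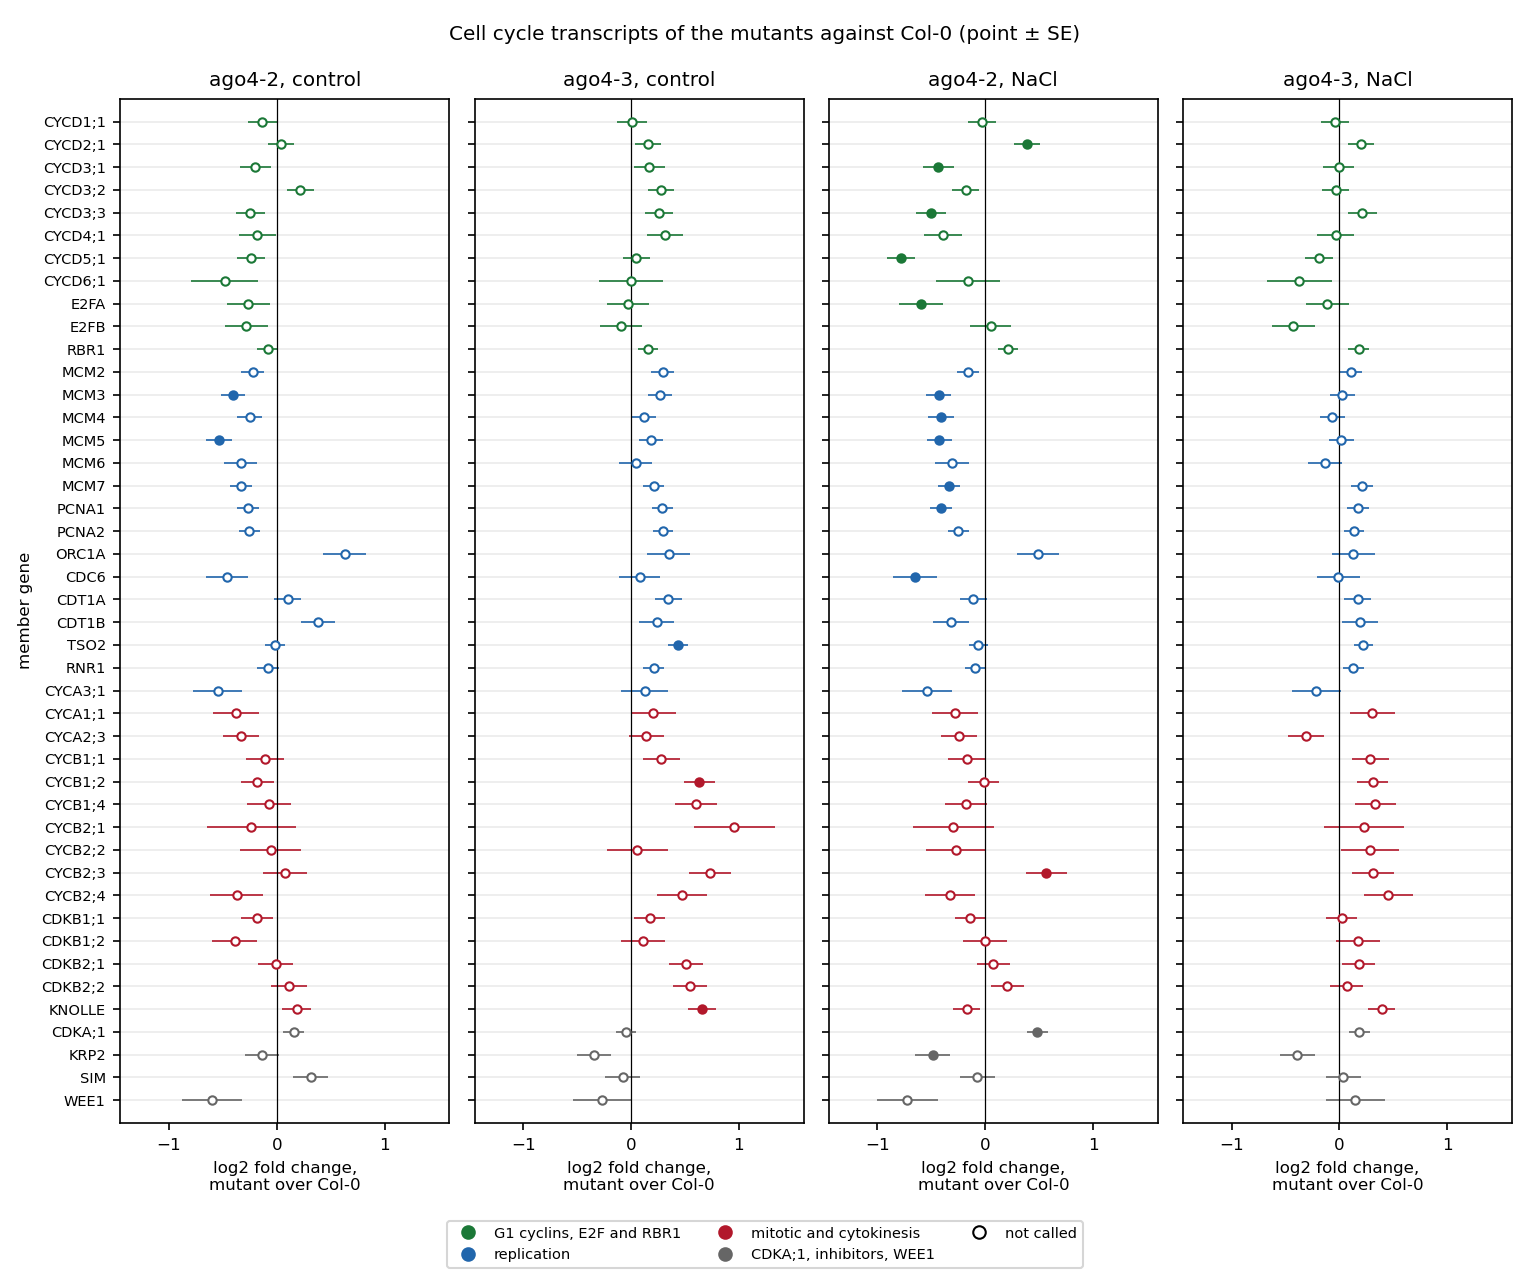
Log2 fold change of each mutant over Col-0 for the 44 tested genes, in control and in NaCl, as points with bars of 1 SE, filled where the adjusted p was under 0.05. The ago4-3 control panel has its tested mitotic genes (red) right of 0, with 2 filled. The ago4-2 NaCl panel holds 14 filled points, and the ago4-3 NaCl panel has none.

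In control medium, 2 mitotic genes and TSO2 were higher in ago4-3 than in Col-0. KNOLLE read 17.4 and 15.7 CPM against 11.1 and 9.86 (0.66 ± 0.13, adjusted p = 0.0138) and CYCB1;2 12.9 and 12.8 against 8.14 and 8.45 (0.63 ± 0.15, adjusted p = 0.0427). TSO2 was higher too, at 210.4 and 223 against 159.5 and 161 CPM (0.43 ± 0.09, adjusted p = 0.0234). These 3 of 44 compare with 0.851% of all genes higher, and 0 of 44 were lower, against 0.806% (1.66% in either direction). All 14 mitotic genes tested had a positive log2 change there, from 0.06 to 0.96, with a median of 0.49 against −0.01 over all genes. CYCB2;1 gave the largest change at 0.96 ± 0.38 (adjusted p = 0.267). The mitotic gene left out of the fit, CYCA2;1, went the other way in the authors' deposited table, with a log2 change of −0.36. All 15 replication genes were positive as well, from 0.04 to 0.43, with 1 called. Other genes of the wider list described below were more mixed, with 12 of 23 replication genes positive (median 0.01) and 15 of 21 mitotic genes positive (median 0.21). The ago4-3 control libraries are also the reference of the salt comparison in ago4-3. The 3 calls ended without either Col-0 control library or either ago4-3 control library, and under scaling by library size alone. On NaCl, 0 of 44 differed between ago4-3 and Col-0 in edgeR or DESeq2, where 0.541% of all genes were higher and 0.648% lower. At an unadjusted edgeR p under 0.05 there were 5 of 44 (KNOLLE, TSO2, KRP2, CYCB1;2 and E2FB), beside 2064 of all 17751 genes. The comparisons with Col-0 share its libraries with the salt comparison in Col-0 and with each other within a medium.

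Whether salt acted differently in a mutant was tested as the difference between its response and that of Col-0. For the listed genes, 0 of 44 were called for ago4-2, where 4.43% of all genes were (1.84% with a more positive and 2.59% with a more negative response), and 0 of 44 for ago4-3, against 0.0225% (0.0113% in each direction), both in edgeR and in DESeq2. An unadjusted edgeR p under 0.05 was found for 5 of 44 in ago4-2 (RBR1, CDKA;1, CDT1B, CYCD5;1 and CYCD3;2) and for 1 in ago4-3 (CDKB2;2). Of all 17751 genes, 3340 in ago4-2 and 981 in ago4-3 had such a p. The smallest adjusted p values were 0.107 for CYCD5;1 (−0.55 ± 0.18) and 0.108 for CDT1B in ago4-2, and 0.893 for CDKB2;2 in ago4-3 (−0.48 ± 0.22). The mitotic rises of Col-0 and ago4-2 that were not called in ago4-3 are therefore not shown to differ between genotypes, and a p above the threshold does not show that the responses are alike.

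A wider list held 76 other cell cycle genes, of which 71 were tested. Salt raised 2 and lowered 6 of them in Col-0, raised 8 and lowered 16 in ago4-2 and raised 1 and lowered 10 in ago4-3, with medians of −0.0234, 0.0013 and −0.151. The shares lower were 8.45%, 22.5% and 14.1%, against 7.42%, 17.8% and 10.4% of all genes, and the shares higher 2.82%, 11.3% and 1.41%, against 10.7%, 17.4% and 12.6%. Without ago4-2 control replicate 1 the ago4-2 counts were 5 higher and 12 lower, without its replicate 2 8 and 10, without NaCl replicate 1 4 and 7, and without NaCl replicate 2 3 and 5. The 6 lower in Col-0 came to 1 to 3 when a Col-0 library was left out, and the 10 lower in ago4-3 to 2, 4 and 5 without NaCl replicate 2, control replicate 1 and NaCl replicate 1 of ago4-3. Of 23 other replication genes, 3, 7 and 6 fell in Col-0, ago4-2 and ago4-3, and 2 rose in ago4-2. The shares lower were 13%, 30.4% and 26.1%, and leaving out 1 library of the genotype gave 0 to 2, 1 to 5 and 1 to 5 lower genes. Those that fell include the origin recognition subunit ORC2 (−0.74 in ago4-2 and −0.84 in ago4-3, adjusted p = 0.00689 and 0.00413) and a second ribonucleotide reductase small subunit, RNR2A (−0.74 and −0.38, adjusted p = 0.000142 and 0.0214). ORC1B, the paralog of ORC1A, fell in ago4-3 (−0.62, adjusted p = 0.00785). The cyclin CYCA3;2 went the other way in ago4-2, from 57.9 and 48.7 to 76.1 and 76.5 CPM (0.52 ± 0.09, adjusted p = 0.000681).

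Of 21 other mitotic genes, 1 rose in Col-0 and 5 in ago4-2, and 0 were lower in any genotype in the full fit. That is 4.76%, 23.8% and, in ago4-3, 0% higher, against 10.7%, 17.4% and 12.6% of all genes. The 5 came to 3, 3 and 2 without control replicate 1, NaCl replicate 1 and NaCl replicate 2 of ago4-2, and the 1 in Col-0 to 0 without Col-0 control replicate 2. The Aurora kinase AUR3 rose from 5.53 and 4.64 to 8.09 and 8.65 CPM in Col-0 (0.71 ± 0.17, adjusted p = 0.00898) and from 6.20 and 5.46 to 11.6 and 13.8 in ago4-2 (1.13 ± 0.17, adjusted p = 0.000168). KEULE, a partner of KNOLLE in membrane fusion, and the spindle protein TPX2 rose in ago4-2 (0.56 and 0.80, adjusted p = 0.00174 and 0.0163). The repressor DEL1, an atypical E2F, and the CDK inhibitor SMR4 were the 2 of 71 that fell in all 3 genotypes, where 4.78% of all genes did. DEL1 changed by −0.70, −0.57 and −0.51 (adjusted p = 0.00321, 0.00797 and 0.0195). SMR4 changed by −1.41, −2.46 and −1.55 (adjusted p = 0.0143, 0.000695 and 0.0127), at levels of 0.26 to 3.42 CPM. SMR4 read 3.42 and 2.19 CPM in Col-0 control and 1.10 and 1.04 in NaCl, 2.71 and 1.90 against 0.26 and 0.534 in ago4-2, and 2.94 and 1.78 against 0.972 and 0.686 in ago4-3. DPA, a dimerisation partner of E2F factors, fell in Col-0 and ago4-2 (−0.39 and −0.61, adjusted p = 0.0417 and 0.0022), the former lost in 6 of the 12 reduced fits. The CDK inhibitor KRP4, unlike KRP2, rose in ago4-2 and ago4-3 (0.47 and 0.60, adjusted p = 0.0302 and 0.0146). Among these other genes, the ago4-2 calls of RNR2A, CYCA3;2, AUR3, KEULE and SMR4 and the Col-0 call of DEL1 were made in all 12 reduced fits, and so was the ago4-2 call of DPA. Apart from the Col-0 call of DPA, the other calls named were lost in 1 to 3 of them (highest adjusted p = 0.193).

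The authors' deposited table for each comparison was also counted for the listed genes at a false discovery rate under 0.05. The share of all genes under that rate was not counted, so no background stands beside these counts. For salt in Col-0 the authors' deposited table had 5 higher and 11 lower, for ago4-2 5 higher and 10 lower, and for ago4-3 1 higher and 16 lower. Against Col-0 in control, the authors' deposited table had 1 lower gene for ago4-2, which was CYCA2;1 with a log2 change of −1.05. For ago4-3 it had 8 higher genes. KNOLLE, CYCB1;2 and TSO2 among them were also called above in that comparison, while CYCB1;4, CYCB2;1, CYCB2;3, CDKB2;1 and CDKB2;2 were not. On NaCl the authors' deposited table had 4 higher and 12 lower for ago4-2 and 0 of either for ago4-3.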

How the data were processed

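Polyadenylated RNA was sequenced from germinating Arabidopsis seeds in 12 libraries, 2 for each of 6 groups. The authors deposited 9 tables, each comparing a pair of groups, with raw counts per gene for 4 libraries. Per the file headers, these tables also hold 36 library columns of edgeR pseudo-counts, not used here, and a log2 fold change, p-value and false discovery rate (FDR) for each gene. The tools and build named in the submitters' processing notes, per the labels, are edgeR, DESeq, Picard, SAMtools and TAIR10, with no versions or roles. The aligner, the counting tool and strandedness are not given in the sources used here. Of counts from 1 to 20, 72.35% to 87.65% per library were even numbers, and the reason was not tested, so counts may not be independent reads. No 2 libraries were identical, and depth ran from 18168653 to 47517007 counts.

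From the deposited counts, the 17751 genes with values in all 12 libraries were fitted with edgeR 4.0.16 (R 4.3.3) by the quasi-likelihood test, with TMM scaling, a coefficient for each of 6 groups and 6 residual degrees of freedom. The 9 comparisons were 3 of salt, 4 of a mutant with Col-0 and 2 differences of salt responses. Benjamini-Hochberg adjustment ran over all 17751 genes, and calls were made at an adjusted p under 0.05. Values after ± are standard errors. Fits were tested on simulated data for salt in Col-0. There edgeR called 77 of 100 genes changed 2-fold, 97 of 100 changed 4-fold and 15 genes left unchanged. Changes under 2-fold, such as most of those given here, were not simulated. Alternatives were DESeq2 1.42.0, RLE scaling, library sizes alone, a mean of at least 2 CPM, the replicate number as a block, and each library left out in turn. Within each role, values by library are given for up to 5 genes with the smallest adjusted p under salt, up to 3 more against Col-0, and the uncalled gene of highest mean count. From the wider list, up to 3 genes per role with the smallest adjusted p under salt could be named, and ORC1B, CYCB1;1 and a few other values were added after they were seen. The listed genes, the wider list and the marker lists were chosen with earlier results of these data known. Replicate numbers were not used to pair the libraries in the main fit. Deviations of same-numbered libraries correlated at −0.411 to 0.251 over 15 pairs of groups, with 2 over 0.1. Since each group gives only the difference of its pair, these correlations cannot exclude shared handling of same-numbered libraries. Gene positions, exon lengths and promoters are from the RefSeq annotation of TAIR10.1.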

Additional observations from a re-analysis of the deposited data

How the results depend on the processing

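DESeq2, RLE scaling and the replicate block kept each of the 18 counts of higher or lower listed genes within 1.5 times its value. With the replicate block, 4 were higher under salt in Col-0, 2 in ago4-3 against Col-0 in control and 2 in ago4-2 against Col-0 in NaCl. The block ended 4 of 78 single-gene calls (CYCB2;3 under salt in Col-0 and in ago4-2 against Col-0 in NaCl, KRP2 under salt in ago4-3, CYCB1;2 in ago4-3 against Col-0 in control), DESeq2 2, RLE scaling 0, the minimum of 2 CPM 2 and library sizes alone 23, and 0 reversed. Library sizes alone shifted the median log2 change of all genes by −0.133 for salt in ago4-2, −0.183 and −0.265 for ago4-2 against Col-0 in control and NaCl, and −0.137 and −0.102 for ago4-3. With it, higher genes under salt came to 1 in Col-0, 3 in ago4-2 and 1 in ago4-3. Against Col-0, it gave 4 lower for ago4-2 in control, 0 higher for ago4-3 in control, and 0 higher and 21 lower for ago4-2 in NaCl. The 2 CPM minimum gave 4 higher for salt in ago4-3.

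With 1 library left out, higher genes ranged from 0 to 7 and lower genes from 5 to 12 for salt in Col-0, from 5 to 7 and from 10 to 17 in ago4-2, and from 0 to 4 and from 10 to 18 in ago4-3. Against Col-0, ago4-2 gave 0 to 1 higher and 0 to 3 lower in control and 1 to 4 higher and 1 to 12 lower in NaCl, and ago4-3 gave 0 to 4 higher in control. The other counts stayed at 0. Of the 78 calls, 27 were made in all 12 of those fits. In such a fit a group of 1 library is taken to vary like the others. With 2 libraries a group, the median SD of a listed gene was 6.69% of its group mean. For results that changed under an alternative, the cause was not tested.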
